A study of Schmidtea mediterranea with 24 samples.

Results

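These data concern the 150 transcripts that stood highest at 12 hours post-amputation (hpa) in *control(RNAi)* tail fragments of the planarian *Schmidtea mediterranea*, out of 13156 transcripts that could enter the choice. For every transcript that carried only a SmedASXL assembly number, the level in each library was computed as CPM, counts scaled to a common library total, and the group median of log2(CPM + 0.5) was taken. A transcript could enter if its median reached 5 CPM in at least 1 of the 8 groups. The 150 were chosen by the smaller of 2 differences in *control(RNAi)* tails, 12 hpa minus 6 hpa and 12 hpa minus 24 hpa. All comparisons that use *control(RNAi)* tails are therefore given as descriptions without a test. The *yki(RNAi)* and the intact *control(RNAi)* libraries entered only through the 5 CPM minimum, and comparisons among them were tested. Of the 150, 144 reached that minimum in a *control(RNAi)* tail group. The other 6 reached it elsewhere, 4 of them only in *yki(RNAi)* tails (SmedASXL_012822, SmedASXL_013558, SmedASXL_005415 and SmedASXL_006073) and 2 only in intact animals (SmedASXL_014981 and SmedASXL_016291).

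The study followed the injury response after RNAi of *yki*. There were 8 groups of 3 libraries, labelled A to C: *yki(RNAi)* intact animals, *yki(RNAi)* tails at 6, 12 and 24 hpa, *control(RNAi)* intact animals and *control(RNAi)* tails at 6, 12 and 24 hpa. All animals were of the asexual clonal strain CIW4, were fed double-stranded RNA 3 times (*gfp* sequence for *control(RNAi)*), were kept in a high-salt medium, and received 60 Gy of irradiation 15 days after feeding. Amputation, or collection of the intact animals, followed 24 h after irradiation. A tail library pooled 15 fragments and an intact library more than 8 animals, so a library is a pool of a clonal strain and the spread within a group is the spread between pools. The tails at different times were also at different times after irradiation, and intact animals held all body regions, so a difference between tails and intact animals also contrasts region and time after irradiation.

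Yorkie (Yki) is the transcriptional co-activator at the end of the Hippo pathway, a kinase cascade that restrains tissue growth in animals. Planarians replace lost parts from adult stem cells called neoblasts, which irradiation removes. A wound is followed within hours by transcription in the surviving cells, first of immediate early genes and later of genes that patterning and regeneration use, among them the WNT inhibitor *notum*.

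Library totals ran from 11.02 to 23.6 M counts. The targeted transcript, *yki*, had 12.4 to 19.8 CPM in *yki(RNAi)* libraries, against 78.1 to 119 CPM in *control(RNAi)* libraries, and the ranges did not overlap. A set of 32 transcripts found in intact animals of both conditions but under 5% of that level in *control(RNAi)* tails by their medians, none of them a member, stood at 9.05% of its level in intact *control(RNAi)* animals in *yki(RNAi)* 6 hpa library B, at 11.4% in *yki(RNAi)* 24 hpa library B and at 7.90% in *control(RNAi)* 6 hpa library C, and at no more than 3.73% in the other tail libraries. The 19 epidermal-lineage marker rows summed at 12 hpa to 1819 to 1898 CPM in *yki(RNAi)* tails and 2237 to 2499 CPM in *control(RNAi)* tails. At 24 hpa they summed to 1408 to 1424 CPM in *yki(RNAi)* and 1497 to 1643 CPM in *control(RNAi)* tails. The ranges overlapped at 6 hpa, at 3038 to 3380 CPM in *yki(RNAi)* and 3321 to 3627 CPM in *control(RNAi)* tails. They also overlapped in intact animals, at 2596 to 3264 CPM in *yki(RNAi)* and 2353 to 2839 CPM in *control(RNAi)*. The only 2 rows found as gut markers were *Smed-porcnA* and *Smed-porcn-B*. They summed to 798 to 918 CPM in *yki(RNAi)* libraries and to 616 to 684 CPM in *control(RNAi)* libraries. This sum stands for these 2 transcripts and does not measure gut tissue as a whole. The 5 stem cell rows still had transcripts at the times after irradiation sampled here, and their sums did not overlap between conditions at any tail time. They came to 525 to 547 CPM in *yki(RNAi)* and 473 to 499 CPM in *control(RNAi)* tails at 6 hpa, to 484 to 512 CPM in *yki(RNAi)* and 427 to 446 CPM in *control(RNAi)* tails at 12 hpa, and to 399.8 to 416 CPM in *yki(RNAi)* and 373 to 389.5 CPM in *control(RNAi)* tails at 24 hpa. The part of these differences in the members' levels was not tested, and in such bulk libraries fewer cells of a type and less RNA per cell cannot be told apart.

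The 12 hpa peak of the members was modest for most and tall for a few. The smaller of the 2 differences, on the log2 scale, ran from 0.35 to 2.39 with a median of 0.49, that is from 1.28-fold to 5.24-fold with a median of 1.40-fold. It was at least 2-fold for 17 members and below 0.5 on the log2 scale for 78. Levels at 12 hpa in *control(RNAi)* tails ran from 2.88 to 2936 CPM with a median of 20.0 CPM, with 46 members under 10 CPM, 77 from 10 to under 100 CPM and 27 at 100 CPM or more. For 17 members the 12 hpa *control(RNAi)* tails were the only group to reach 5 CPM. The last 3 members inside the cut, SmedASXL_074696, SmedASXL_071862 and SmedASXL_076632, had differences of 0.35 each, as did the first 3 outside it, SmedASXL_010982, SmedASXL_010528 and SmedASXL_006629, so the cut fell in a continuous range.

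The choice used medians of 3 libraries, and 2 libraries set themselves apart on these members. For 22 members *control(RNAi)* 6 hpa library C, and for 49 members *control(RNAi)* 24 hpa library C, lay within or above the range of the 12 hpa libraries, whereas the A and B libraries at those times did so for 1 to 5 members. All 3 libraries at 12 hpa lay above all 6 libraries at 6 and 24 hpa for 86 of the 150 members, and for 145 when both C libraries were left out. On a scale built from transcripts other than the members, *control(RNAi)* 6 hpa was set at 0 and 24 hpa at 1. The C library at 6 hpa stood at -0.14 and the C library at 24 hpa at 0.89. Each C library helped to set its own end of this scale, so the scale could not test its time. Intact *control(RNAi)* libraries A, B and C stood at 0.42, 0.41 and 0.02, so the scale did not follow time after amputation alone. The members together made up 1.59% of the counts in each of these C libraries, 0.63 to 1.04% in the other *control(RNAi)* tails at 6 and 24 hpa, 1.68 to 1.83% at 12 hpa, and 0.34 to 0.42% in every *yki(RNAi)* library.

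**Figure D1:**
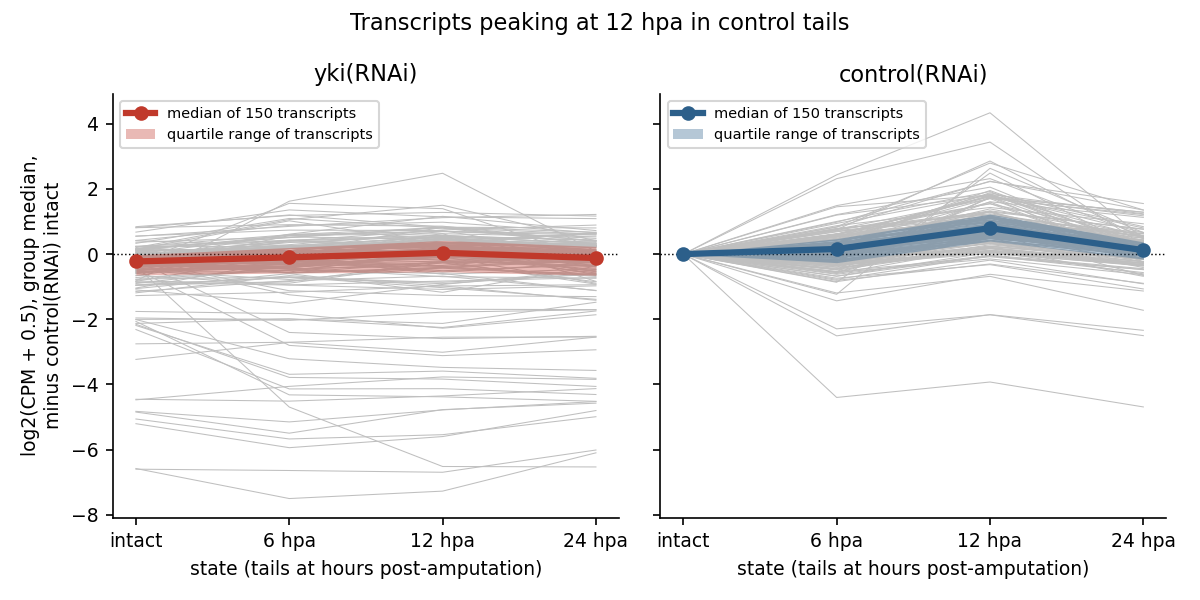
Group median level of each of the 150 transcripts (grey lines) as log2(CPM + 0.5) minus its level in intact *control(RNAi)* animals, in intact animals and in tails at 6, 12 and 24 hpa, with *yki(RNAi)* on the left and *control(RNAi)* on the right; coloured lines and bands give the median and the quartile range of the transcripts. The *control(RNAi)* median stood at 0.80 at 12 hpa by the choice of members, and a group of transcripts ran far below 0 in every *yki(RNAi)* state.

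In intact *control(RNAi)* animals most members were below their 12 hpa level. The intact median lay below both the 6 and the 24 hpa medians for 78 members, between them for 30, above both but below 12 hpa for 29, and at or above 12 hpa for 13. The 12 hpa median was at least 2-fold above the intact median for 57 members. All 3 tail libraries at 12 hpa lay above all 3 intact libraries for 121 members, beside 19.4% of the 13276 rows past the level minimum, and below them for 6 members, beside 21.1%. Since the 12 hpa libraries chose the members, nothing is read from these counts.

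The 6 members with the tallest peaks were SmedASXL_018913, SmedASXL_003850, SmedASXL_069668, SmedASXL_010793, SmedASXL_002601 and SmedASXL_001593, none of which carries a gene name in the sources used here. SmedASXL_003850 was the most abundant of them at 12 hpa in *control(RNAi)* tails. In *yki(RNAi)* animals it had 10.7, 5.88 and 4.42 CPM in intact libraries, 11.4, 10.8 and 6.30 CPM at 6 hpa, 17.1, 16.2 and 20.1 CPM at 12 hpa, and 5.60, 7.95 and 5.88 CPM at 24 hpa. In *control(RNAi)* animals it had 13.2, 8.41 and 10.9 CPM in intact libraries, 18.1, 18.7 and 22.1 CPM at 6 hpa, 82.2, 81.7 and 81.9 CPM at 12 hpa, and 14.2, 15.3 and 22.8 CPM at 24 hpa. The peak was therefore present in both RNAi conditions, with *yki(RNAi)* tails at 12 hpa near the level of *control(RNAi)* tails at 6 hpa. Within *yki(RNAi)* tails SmedASXL_003850 was higher at 12 hpa than at 24 hpa (log2 fold change 1.44 ± 0.14 SE, edgeR quasi-likelihood adjusted p = 0.000188) and than at 6 hpa (0.84 ± 0.17, edgeR adjusted p = 0.0107), although the second call was lost without *yki(RNAi)* 12 hpa library C and by DESeq2 (adjusted p = 0.117).

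SmedASXL_010793 stood above its intact level in tails of both conditions by 6 hpa. In *yki(RNAi)* animals it had 0.55, 0.86 and 0.72 CPM in intact libraries, 8.64, 6.16 and 5.14 CPM at 6 hpa, 8.70, 11.6 and 15.1 CPM at 12 hpa, and 1.23, 1.79 and 1.802 CPM at 24 hpa. In *control(RNAi)* animals it had 1.63, 1.68 and 1.66 CPM in intact libraries, 10.5, 14.02 and 11.2 CPM at 6 hpa, 37.3, 43.2 and 45.4 CPM at 12 hpa, and 2.63, 1.73 and 2.50 CPM at 24 hpa. Both conditions thus followed the same order of times, and the 12 hpa libraries of *yki(RNAi)* all lay below those of *control(RNAi)*. Against *yki(RNAi)* intact animals the *yki(RNAi)* tails were higher at 6 hpa by 3.18 ± 0.26 (log2 fold change ± SE, edgeR adjusted p = 5.39e-06), at 12 hpa by 3.95 ± 0.26 (edgeR adjusted p = 1.36e-08) and at 24 hpa by 1.10 ± 0.27 (edgeR adjusted p = 0.00839), the last lost without *yki(RNAi)* intact library A and by DESeq2 (adjusted p = 0.123). At 12 hpa it was also 2.84 ± 0.23 higher than at 24 hpa (edgeR adjusted p = 5.72e-05) and 0.76 ± 0.21 higher than at 6 hpa (edgeR adjusted p = 0.0343), a call that held in 2 of the 6 fits with a library left out and was lost by DESeq2 (adjusted p = 0.455).

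SmedASXL_018913 and SmedASXL_069668 showed the 2 C libraries most plainly. SmedASXL_018913 had 0.70, 0.36 and 9.19 CPM at 6 hpa in tails of *control(RNAi)* animals, 10.6, 14.4 and 11.7 CPM at 12 hpa, and 0.89, 1.84 and 10.9 CPM at 24 hpa, so that each C library was close to the 12 hpa libraries. It was near or at 0 in *yki(RNAi)* libraries, with at most 0.16 CPM in intact animals and in tails at 6 and 12 hpa, and 2.58, 0.21 and 0.28 CPM at 24 hpa. SmedASXL_069668 followed the same libraries, with 0.51, 0.36 and 9.42 CPM at 6 hpa, 14.3, 16.6 and 13.4 CPM at 12 hpa, and 1.31, 3.26 and 21.1 CPM at 24 hpa in *control(RNAi)* tails. The 4 other members with both C libraries at least 2-fold above A and B were SmedASXL_006919, SmedASXL_032732, SmedASXL_016342 and SmedASXL_016532, and no member had an A or B library at those times so far above the others. Whether any of these rows are parts of 1 gene was not tested.

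SmedASXL_002601 and SmedASXL_001593 were low throughout. SmedASXL_002601 had 3.33, 3.74 and 4.69 CPM in the 12 hpa tails of *yki(RNAi)*, against 11.8, 14.4 and 14.1 CPM in those of *control(RNAi)*, and it was higher in *yki(RNAi)* tails at 12 hpa than in *yki(RNAi)* intact animals (log2 fold change 1.58 ± 0.23 SE, edgeR adjusted p = 9.42e-05). SmedASXL_001593 had 1.43, 0.73 and 1.26 CPM in the 12 hpa tails of *yki(RNAi)*, against 9.29, 7.72 and 9.83 CPM in those of *control(RNAi)*. Its *yki(RNAi)* levels were highest at 24 hpa, at 2.58, 1.74 and 1.09 CPM, where it was 1.56 ± 0.41 above *yki(RNAi)* intact animals on the log2 scale (edgeR adjusted p = 0.0121).

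**Figure D2:**
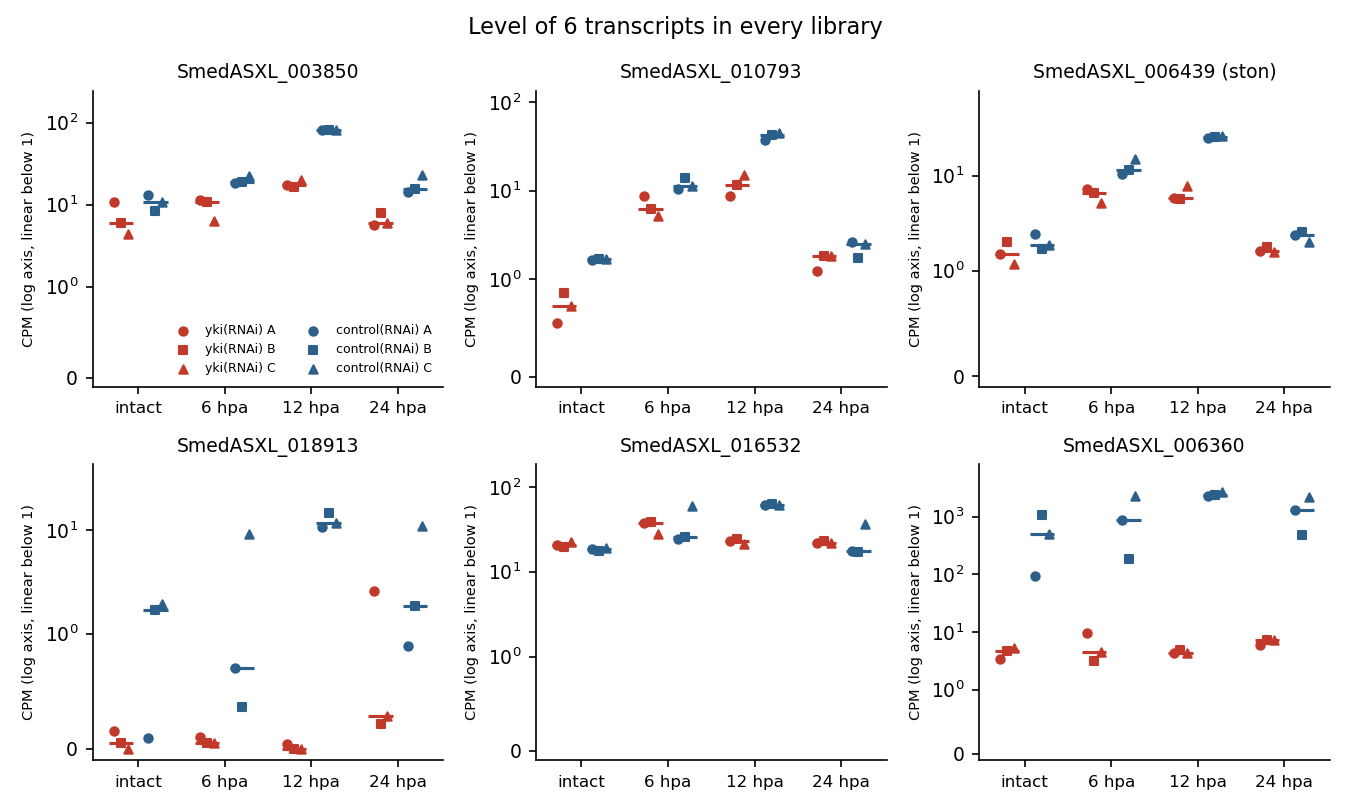
CPM of 6 transcripts in every library (vertical axis logarithmic above 1 CPM and linear below), with *yki(RNAi)* in red left of *control(RNAi)* in blue in each state; markers give libraries A, B and C and bars the medians. SmedASXL_003850, SmedASXL_010793 and *ston* peaked or stayed high at 12 hpa in both conditions, SmedASXL_018913 and SmedASXL_016532 had *control(RNAi)* C libraries at 6 hpa near the 12 hpa level, and SmedASXL_006360 was below 10 CPM in every *yki(RNAi)* library.

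Only 4 of the 150 members have an annotation in the sources used here. SmedASXL_006439 is listed as *ston*, and in *control(RNAi)* tails its order of times was that of SmedASXL_010793. It had 7.28, 6.51 and 5.19 CPM at 6 hpa in tails of *yki(RNAi)* animals, 5.76, 5.64 and 7.68 CPM at 12 hpa and 1.62, 1.79 and 1.56 CPM at 24 hpa, and 10.4, 11.3 and 15.03 CPM at 6 hpa in tails of *control(RNAi)* animals, 24.8, 25.3 and 26.2 CPM at 12 hpa and 2.36, 2.55 and 1.99 CPM at 24 hpa. In *yki(RNAi)* tails the 6 and 12 hpa libraries overlapped, and the level at 12 hpa exceeded that at 24 hpa by 1.92 ± 0.18 on the log2 scale (edgeR adjusted p = 0.00016) and that of *yki(RNAi)* intact animals by 1.96 ± 0.20 (edgeR adjusted p = 3.08e-06).

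SmedASXL_009000 is listed as a rhomboid-like protein, a family of proteases that cut other proteins within the membrane. It had 10.3, 11.1 and 10.3 CPM in the 12 hpa tails of *yki(RNAi)*, against 12.3, 11.1 and 12.8 CPM in those of *control(RNAi)*. The 2 ranges barely overlapped at this time, with the *yki(RNAi)* median lower. Medians were closer in intact animals, at 6.46 CPM in *yki(RNAi)* and 6.80 CPM in *control(RNAi)*, and at 6 hpa, at 8.85 and 8.68 CPM. It was higher at 12 hpa than at 24 hpa in *yki(RNAi)* tails by 0.70 ± 0.14 (edgeR adjusted p = 0.0128), a call lost without *yki(RNAi)* 12 hpa library A or B. SmedASXL_006501, listed as a hypothetical protein, had 5.67, 6.85 and 8.70 CPM in the 12 hpa tails of *yki(RNAi)*, against 8.52, 8.59 and 8.47 CPM in those of *control(RNAi)*. Its *yki(RNAi)* level at 12 hpa was above 24 hpa by 1.23 ± 0.19 on the log2 scale (edgeR adjusted p = 0.00351).

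SmedASXL_014505 is listed as *Smed-Fzd-4-2*, a Frizzled, the family of receptors that bind WNT ligands. It had 13.03, 13.7 and 12.4 CPM at 12 hpa in tails of *yki(RNAi)* animals and 13.4, 15.6 and 13.99 CPM at 24 hpa, against 10.3, 11.98 and 13.2 CPM at 12 hpa in tails of *control(RNAi)* animals and 9.14, 9.74 and 8.21 CPM at 24 hpa. It had 7.27 to 9.18 CPM in intact animals and 10.3 to 12.1 CPM at 6 hpa in *yki(RNAi)*. In *control(RNAi)* it had 5.54 to 6.71 CPM in intact animals and 8.36 to 9.57 CPM at 6 hpa. The peak at 12 hpa was thus in *control(RNAi)* tails, whereas the *yki(RNAi)* median was highest at 24 hpa. No comparison within *yki(RNAi)* called it, with a 2-fold minimum for tails against intact animals. Among 120 rows that carry a gene name and passed the level minimum, 4 reached the members' cut, and the tallest was *Smed-notum*, which is no member. *Smed-notum* had 7.14, 5.69 and 7.39 CPM in the 12 hpa tails of *yki(RNAi)*, against 11.4, 13.3 and 11.1 CPM in those of *control(RNAi)*. The order was the reverse at the other tail times. At 6 hpa it had 3.05 to 3.43 CPM in *yki(RNAi)* and 1.96 to 2.45 CPM in *control(RNAi)* tails. At 24 hpa it had 4.11 to 4.93 CPM in *yki(RNAi)* and 2.42 to 3.71 CPM in *control(RNAi)* tails.

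Of the 97 genes in the earlier list of wound-induced genes that the study used, 3 were members. This is 3.09% of all 97 listed genes and 2.00% of the members. Of the list, 83 were past the level minimum, which is 0.625% of the 13276 such rows. List entries were matched to rows with or without a gene name, and the 13276 hold both kinds. Rows with a gene name could not be members, so these shares have unlike bases. A longer list of wound-induced transcripts, chosen on these same libraries and so no independent evidence, held 50 members, which is 11.4% of that list and 33.3% of the members, and the listed transcripts make up 2.21% of the rows past the level minimum. The 97 genes were tested beside the members. In *yki(RNAi)* tails at 12 hpa against 24 hpa, 22 of 92 tested were higher, against 2.31% of all rows tested, and 6 lower, against 2.6%. At 12 hpa against 6 hpa, 8 of 93 were higher, against 5.25%, and 14 lower, against 3.39%. In *yki(RNAi)* intact animals against *control(RNAi)* intact animals, 17 of 93 were higher, against 1.68%, and 9 lower, against 1.98%. Tails against *yki(RNAi)* intact animals were called with a 2-fold minimum. At 6 hpa, 9 of 94 were higher, against 0.484% of all rows tested, and 4 lower, against 2.31%. At 12 hpa, 15 of 94 were higher, against 3.23%, and 4 lower, against 2.95%. At 24 hpa, 13 of 93 were higher, against 6.18%, and 6 lower, against 3.47%.

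The time course of the members in *yki(RNAi)* tails was not ranked in the choice, and these tails entered only through the level minimum. The 12 hpa median lay above both the 6 and 24 hpa medians for 76 of 150 members, or 50.7%, and for 30.6% of all rows past the level minimum. All 3 libraries at 12 hpa lay above the 6 others for 22 members, against 5.33% of all such rows. Among the 144 members at the minimum in a *control(RNAi)* tail group these counts were 75 and 22. Measured as 12 hpa minus the mean of 6 and 24 hpa on the log2 scale, the median peak height was 0.13 in *yki(RNAi)* tails and 0.61 in *control(RNAi)* tails, and 1 member had the taller peak in *yki(RNAi)*. The *control(RNAi)* median was set by the choice of members, so the 2 heights are given side by side without a test. Across the 150 members, which share libraries and are not replicates, the 2 heights had a Pearson r of 0.18 and a Spearman rho of 0.05.

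**Figure D3:**
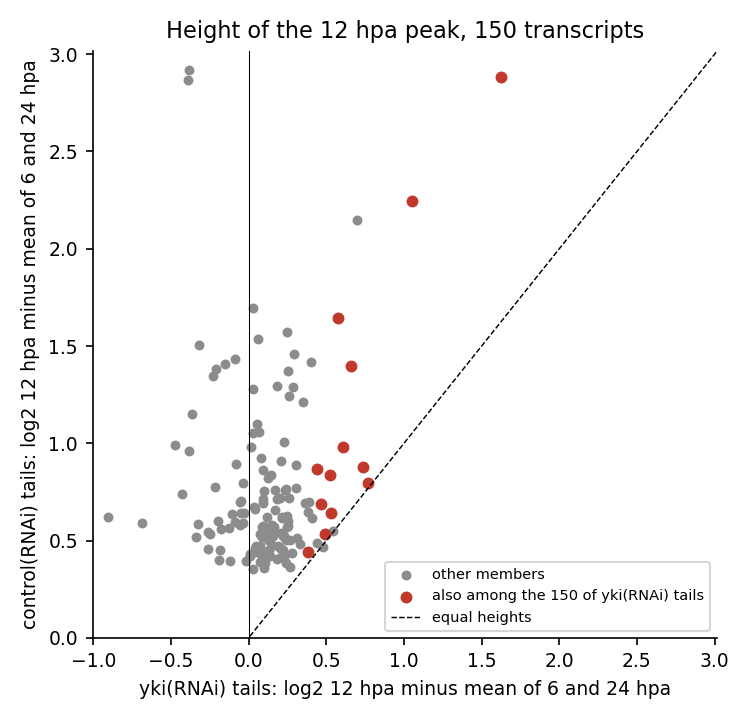
Height of the 12 hpa peak of each member, as log2(CPM + 0.5) at 12 hpa minus the mean of 6 and 24 hpa, in *yki(RNAi)* tails (horizontal) and *control(RNAi)* tails (vertical); the dashed line marks equal heights and red points the 13 members that also rank among the first 150 in *yki(RNAi)* tails. All members but 1 lie above the line, and the choice of members keeps all of them above 0 on the vertical axis.

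In the tests within *yki(RNAi)* tails, 25 members were higher at 12 hpa than at 24 hpa, and 6 were higher than at 6 hpa. A transcript was called at an edgeR adjusted p under 0.05 and a log2 fold change of at least 0.32 in size. At 12 hpa against 24 hpa, 25 of 147 members tested were higher, against 2.31% of all 28580 rows tested and 4.41% of those past the level minimum, and 3 were lower, against 2.6% of all rows and 4.24% of those past the level minimum. At 12 hpa against 6 hpa, 6 of 147 were higher, against 5.25% of 27675 rows and 5.99% of those past the level minimum, and 8 were lower, against 3.39% and 6.02%, so neither share stood clear of the background. The median log2 fold change of the members was 0.12 at 12 hpa against 24 hpa (-0.01 over all rows tested) and 0.05 at 12 hpa against 6 hpa (0.00 over all rows). The count of 25 was 15 without *yki(RNAi)* 12 hpa library B and 16 in a fit of all 24 libraries. The count of 6 was 2 without 12 hpa library C, 3 without 12 hpa library B or 6 hpa library B, 10 without 12 hpa library A and 14 without 6 hpa library C, and that of 8 was 2 without 12 hpa library B, 4 without 12 hpa library C and 15 without 6 hpa library C. Of the 25 members, 4 were also called higher at 12 hpa than at 6 hpa, namely SmedASXL_003850, SmedASXL_010793, SmedASXL_005711 and SmedASXL_011948, a set named after its values were seen.

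When the rule of choice was applied to *yki(RNAi)* tails instead, 13 of the 150 transcripts it returned were members, which is 8.67% of the members, and 150 transcripts are 1.14% of those that could enter. By the *yki(RNAi)* difference they were led by SmedASXL_010793, SmedASXL_005711, SmedASXL_003850, SmedASXL_077133 and SmedASXL_011948. SmedASXL_005711 was nearly alike in both conditions, with medians of 12.6, 21.7 and 13.1 CPM at 6, 12 and 24 hpa in *yki(RNAi)* tails and of 10.04, 22.4 and 14.2 CPM in *control(RNAi)* tails. The members called lower in *yki(RNAi)* tails at 12 hpa than at 6 hpa included SmedASXL_015000 and SmedASXL_016532. SmedASXL_016532 had 37.8, 38.9 and 28.2 CPM at 6 hpa, 22.99, 24.4 and 21.3 CPM at 12 hpa and 21.9, 22.96 and 21.8 CPM at 24 hpa in *yki(RNAi)* tails, against 24.4, 25.8 and 59.4 CPM, 60.9, 62.1 and 60.8 CPM, and 17.3, 17.1 and 36.9 CPM at those times in *control(RNAi)* tails. Its highest *yki(RNAi)* time was thus 6 hpa, and the step from there to 12 hpa was -0.67 ± 0.11 on the log2 scale (edgeR adjusted p = 0.00398). For SmedASXL_015000 that step was -0.76 ± 0.12 (edgeR adjusted p = 0.00418), and both calls were lost in the fit of all 24 libraries.

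Against *yki(RNAi)* intact animals, with a 2-fold minimum, few members were called at any time. At 6 hpa 3 of 147 were higher, against 0.484% of 26856 rows and 0.437% of those past the level minimum, and 9 were lower, against 2.31% and 2.66%. At 12 hpa 9 of 147 were higher, against 3.23% of 28112 rows and 1.33% of those past the level minimum, and 10 were lower, against 2.95% and 3.04%. At 24 hpa 5 of 146 were higher, against 6.18% of 27704 rows and 3.04% of those past the level minimum, and 11 were lower, against 3.47% and 3.53%. The median log2 fold changes of the members were 0.20, 0.25 and 0.14 at 6, 12 and 24 hpa. The 5 higher at 24 hpa became 11 without *yki(RNAi)* 24 hpa library B and 10 without library C, and the 3 higher at 6 hpa became 5 without intact library A or 6 hpa library B. These 3 comparisons share the *yki(RNAi)* intact libraries.

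The members lower in tails held some that were abundant in intact animals. SmedASXL_009740 had 72.3, 72.5 and 76.2 CPM in *yki(RNAi)* intact animals and 75.9, 93.9 and 113 CPM in *control(RNAi)* intact animals. In *yki(RNAi)* tails it had 0.15, 5.91 and 3.15 CPM at 6 hpa, 0.56, 0.29 and 0.53 CPM at 12 hpa and 0.06, 7.74 and 0.52 CPM at 24 hpa, and in *control(RNAi)* tails 3.45, 3.98 and 14.7 CPM at 6 hpa, 6.06, 4.21 and 5.72 CPM at 12 hpa and 0.74, 3.16 and 4.22 CPM at 24 hpa. Its highest tail values at 6 and 24 hpa in *yki(RNAi)* and at 6 hpa in *control(RNAi)* were in the libraries in which the 32 transcripts of intact animals stood highest, and *control(RNAi)* 6 hpa library C lay above all 12 hpa libraries. The *yki(RNAi)* tails at 12 hpa differed from *yki(RNAi)* intact animals by -7.33 ± 0.13 on the log2 scale (edgeR adjusted p = 5.75e-15). SmedASXL_016291 was also lower in tails. It had 0.95, 0.87 and 0.92 CPM in the 12 hpa tails of *yki(RNAi)* and 7.50, 8.41 and 8.38 CPM in *yki(RNAi)* intact animals. It reached the level minimum only in intact animals, so the direction of this difference was set by its entry. Without the 6 members under the minimum in *control(RNAi)* tails, 8, 9 and 10 members were called lower at 6, 12 and 24 hpa. SmedASXL_031151 and SmedASXL_009480 were called higher at 24 hpa, and had medians of 6.30, 7.83 and 9.25 CPM and of 6.76, 8.65 and 9.67 CPM at 6, 12 and 24 hpa in *yki(RNAi)* tails, against 4.06 and 4.16 CPM in *yki(RNAi)* intact animals.

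Before any wound, 34 of the members were lower in *yki(RNAi)* animals. In intact animals 34 of 148 members tested were called lower, against 1.98% of 25534 rows tested and 3.36% of those past the level minimum, and 3 were called higher, against 1.68% and 3.12%, by the same edgeR call. The median log2 fold change of the members was -0.22, and -0.01 over all rows tested. For all 34 the 3 *yki(RNAi)* libraries lay below the 3 *control(RNAi)* libraries. The count was 22 without *control(RNAi)* intact library B, 22 without *yki(RNAi)* intact library B and 21 without *yki(RNAi)* intact library C, and the 3 higher became 1, 0 and 1 in those fits. The 2 gut marker rows, *Smed-porcnA* and *Smed-porcn-B*, summed to 798 to 814 CPM in *yki(RNAi)* intact libraries and to 616 to 638 CPM in *control(RNAi)* intact libraries.

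**Figure D4:**
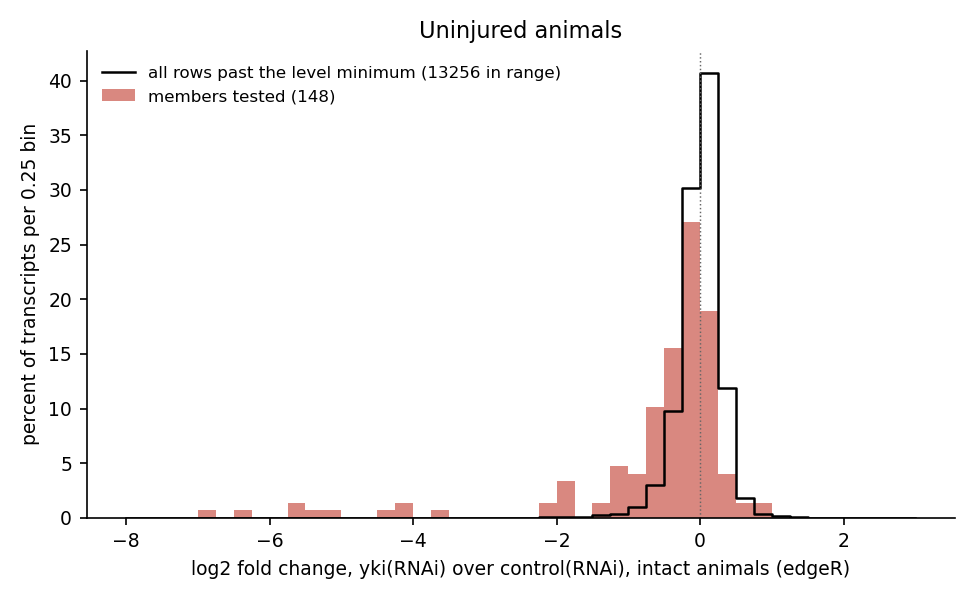
Share of transcripts by log2 fold change of *yki(RNAi)* over *control(RNAi)* in intact animals, in bins of 0.25, for the 148 members tested (red bars) and all rows past the level minimum (black line). The members centre at -0.22, and 12 of them were called at least 4-fold lower, against 31 of all rows past the level minimum.

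The lower members included a small group with far lower levels in *yki(RNAi)* intact animals. Of the 34, 22 were at least 2-fold lower, 12 at least 4-fold and 10 at least 10-fold, and among all rows past the level minimum 118 (0.89%), 31 (0.234%) and 14 (0.106%) were called at these sizes. SmedASXL_006360 was the furthest down, with 3.36, 4.70 and 5.35 CPM in *yki(RNAi)* intact animals, against 92.0, 1054 and 504 CPM in *control(RNAi)* intact animals (log2 fold change -6.95 ± 0.75 SE, edgeR adjusted p = 0.000312). It stayed at 3.18 to 9.60 CPM in *yki(RNAi)* tails. In *control(RNAi)* tails it had 894, 185 and 2307 CPM at 6 hpa, 2318, 2378 and 2740 CPM at 12 hpa and 1286, 484 and 2225 CPM at 24 hpa, so the conditions were apart in every state while the *control(RNAi)* libraries varied widely among themselves except at 12 hpa. SmedASXL_004241 had 4.22, 5.79 and 4.58 CPM in *yki(RNAi)* intact animals, against 102, 657 and 485 CPM in *control(RNAi)* intact animals (-6.42 ± 0.59, edgeR adjusted p = 0.000114).

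The 8 others of these 10 were SmedASXL_074705, SmedASXL_016645, SmedASXL_016646, SmedASXL_016647, SmedASXL_009670, SmedASXL_004244, SmedASXL_010330 and SmedASXL_012043. Several have neighbouring assembly numbers, and how reads that fit more than 1 of them were counted is not given in the sources used here, so they may not be independent rows. SmedASXL_009670 was the most abundant member in intact *control(RNAi)* animals, with 21.6, 50.8 and 40.2 CPM in *yki(RNAi)* intact animals, against 203, 1372 and 902 CPM in *control(RNAi)* intact animals, and it reached 264 CPM in *yki(RNAi)* 24 hpa library A. Summed over the 10, *yki(RNAi)* libraries held 53.2 to 97.3 CPM in intact animals, 58.9 to 186 CPM at 6 hpa, 106 to 110 CPM at 12 hpa and 89.0 to 440 CPM at 24 hpa. The *control(RNAi)* libraries held 626 to 4711 CPM in intact animals, 1487 to 8713 CPM at 6 hpa, 8682 to 9964 CPM at 12 hpa and 3036 to 9287 CPM at 24 hpa, the highest at 6 and 24 hpa being the C libraries. A named row outside the members, the lectin-like SmedASXL_004185, ran with them, at 3.44 to 8.95 CPM in *yki(RNAi)* intact animals and 63.6 to 657 CPM in *control(RNAi)* intact animals.

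**Figure D5:**
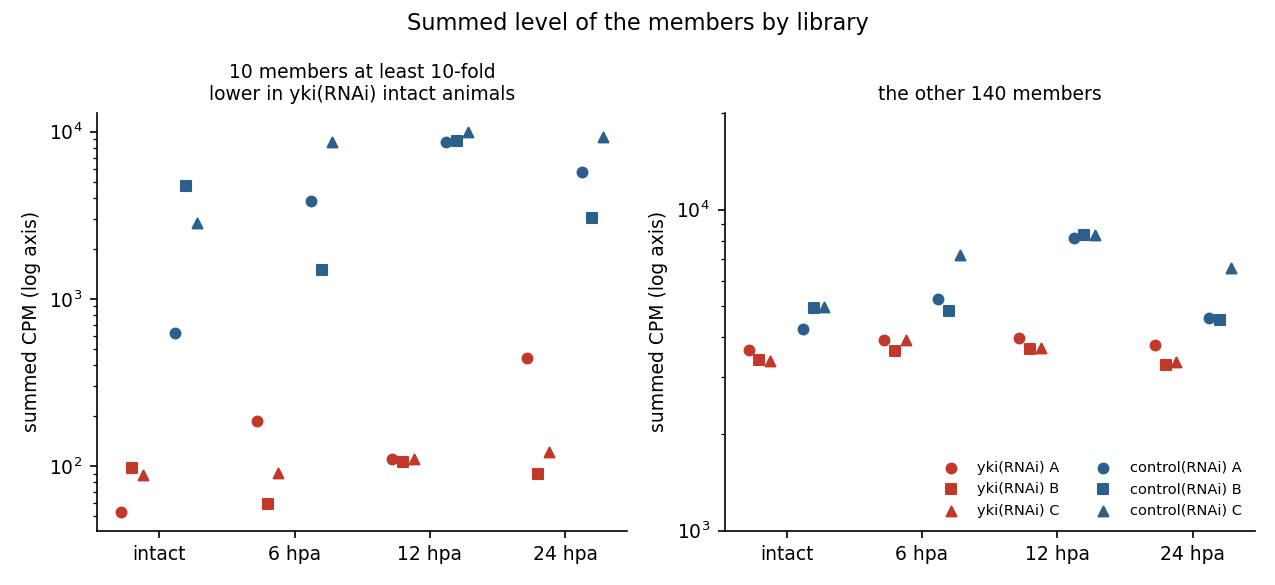
Summed CPM (log axis) in every library of the 10 members at least 10-fold lower in *yki(RNAi)* intact animals (left) and of the other 140 members (right), with *yki(RNAi)* in red left of *control(RNAi)* in blue and markers for libraries A, B and C. The 10 held at most 440 CPM in any *yki(RNAi)* library and at least 626 CPM in any *control(RNAi)* library, and the C libraries of *control(RNAi)* at 6 and 24 hpa stood near the 12 hpa libraries.

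A milder example was SmedASXL_006851, with 113, 123 and 88.9 CPM in *yki(RNAi)* intact animals, against 308, 539 and 504 CPM in *control(RNAi)* intact animals (-2.07 ± 0.20, edgeR adjusted p = 0.00014). It was lower still in *yki(RNAi)* tails at 12 hpa than in *yki(RNAi)* intact animals (-1.59 ± 0.11, edgeR adjusted p = 3.14e-08). The 2 named members called higher in *yki(RNAi)* intact animals were SmedASXL_010991 and SmedASXL_001879. SmedASXL_010991 had 77.7, 85.4 and 86.6 CPM in *yki(RNAi)* intact animals, against 44.5, 53.3 and 57.4 CPM in *control(RNAi)* intact animals (0.68 ± 0.11, edgeR adjusted p = 0.00568), a call lost without *yki(RNAi)* intact library B. SmedASXL_001879 had 4.9997, 7.05 and 8.28 CPM in *yki(RNAi)* intact animals, against 3.63, 3.86 and 3.80 CPM in *control(RNAi)* intact animals (0.86 ± 0.20, edgeR adjusted p = 0.0312), and it was lost by DESeq2 and in 4 of the 6 fits with a library left out.

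In tails the difference between conditions was greatest at the time used for the choice. All 3 *yki(RNAi)* libraries lay below all 3 *control(RNAi)* libraries for 65 members at 6 hpa, beside 13.7% of the 13276 rows past the level minimum, for 113 at 12 hpa, beside 19.7%, and for 58 at 24 hpa, beside 11.7%. They lay above for 17 members at 6 hpa, beside 23.2%, for 6 at 12 hpa, beside 39.5%, and for 12 at 24 hpa, beside 23.8%. The median log2 difference of *yki(RNAi)* minus *control(RNAi)* was -0.18, -0.65 and -0.18 at 6, 12 and 24 hpa, and that over all rows was 0.05, 0.09 and 0.05. These counts and medians rest on the *control(RNAi)* tails that picked the members, so nothing is read from them. On the scale from *control(RNAi)* 6 hpa at 0 to 24 hpa at 1, built without the members, *yki(RNAi)* tails at 12 hpa stood at 0.60 to 0.75 and *control(RNAi)* tails at 12 hpa at 0.35 to 0.44. The part of this position in the members' difference at 12 hpa was not tested.

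The median log2 difference at 12 hpa was -2.85 among the 34 called lower in *yki(RNAi)* intact animals and -0.51 among the other 116. Of those 116, 79 lay below *control(RNAi)* in all libraries, beside 19.7% of all rows past the level minimum. For 32 members all *yki(RNAi)* libraries lay below all *control(RNAi)* libraries in intact animals and at 6, 12 and 24 hpa alike, which is 21.3% of the members beside 3.15% of all rows past the level minimum, and no member lay above in all 4 states. For 33 of the 113 members that were apart at 12 hpa, the *yki(RNAi)* libraries were not all below in any of the other 3 states. All of these counts and medians also rest on the *control(RNAi)* tails that picked the members, so nothing is read from them. The test of *yki(RNAi)* against *control(RNAi)* that uses no library ranked in the choice is the one in intact animals, given above. It is not wholly free of the choice, since intact libraries entered through the level minimum. For 17 members only the 12 hpa *control(RNAi)* tails reached that minimum.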

How the data were processed

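Poly(A)-selected RNA of 24 libraries was sequenced as single-end reads of 50 bp. Per the labels and the study's methods, reads were demultiplexed with bcl2fastq 1.8.3, trimmed by 15 bp at the 3' end and aligned by the authors with Bowtie2 2.2.4 to the SmedASXL assembly, and raw counts per transcript were deposited for each of 2 lanes. The counting tool and the treatment of reads with several matches are not given in the sources used here. Lanes were summed. The second lane of *yki(RNAi)* intact library A has 22 damaged entries, none of a member, and was left out. The row naming no transcript, 6.31 to 7.49% of the counts, was left out. The 6 deposited tables of the authors' own DESeq2 comparisons (fold changes and p-values) were not used.

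Each comparison used edgeR 4.0.16 (R 4.3.3) on the libraries of the 2 groups compared, with TMM factors, filterByExpr (minimum count 10, minimum total 15) and the quasi-likelihood F test, adjusted by Benjamini-Hochberg over all rows tested. Of the 150 members, 146 to 148 passed that filter. Calls needed an adjusted p under 0.05 and at least 1.25-fold (2-fold for tails against intact animals). The unit of n is the library (3 per group). The method was tested on simulated data for *yki(RNAi)* tails at 12 against 6 hpa, over 27675 rows with 200 changed: 34.3% of 1.5-fold, 73.1% of 2-fold and 89.4% of 4-fold changes were recovered, with 17 false calls among 148. That share of false calls was above the adjusted level of 0.05, and changes between 1.25-fold and 1.5-fold were not simulated.

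Members named are the 6 with the tallest peak, those annotated, up to 2 higher and 2 lower by the size of change in each tested comparison (called, 5 CPM in a group, no overlap of libraries), those with the highest and lowest intact *control(RNAi)* level and those beside the cut. The members and lists were chosen with earlier results of these data known. Same-lettered libraries deviated together in every pair (r over 0.1) only for *yki(RNAi)* tails at 6 hpa against *yki(RNAi)* intact animals. Over the 6 comparisons r ran from -0.31 to 0.44. For intact animals of the 2 conditions it was 0.44, 0.28 and 0.08 for A, B and C. Whether the letters pair libraries was therefore not settled, and the main fits did not pair them. Alternatives were DESeq2 1.42.0 and its size factors, no filter, a fit of all 24 libraries, a replicate block, each library left out, and other ways of choosing the 150.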

Additional observations from a re-analysis of the deposited data

Results flagged for a closer look

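Among the members named, 2 moved in opposite directions at 12 hpa against intact animals in the 2 RNAi conditions, with every library of a tail group on 1 side of every intact library. For SmedASXL_004241 the log2(CPM + 0.5) difference was -0.69 in *yki(RNAi)* and 0.65 in *control(RNAi)*. Its *yki(RNAi)* levels were 2.51 to 2.77 CPM at 12 hpa and 4.22 to 5.79 CPM in intact animals. For SmedASXL_032732 the difference was -0.13 in *yki(RNAi)* and 1.81 in *control(RNAi)*. Its *yki(RNAi)* levels were 0.87 to 1.07 CPM at 12 hpa and 1.09 to 1.36 CPM in intact animals. At such low levels depth limits the *yki(RNAi)* direction of both. The difference between conditions was not tested, and the *control(RNAi)* tails at 12 hpa took part in the choice of members.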

How the results depend on the processing

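Of the 204 counts of members called under alternatives, 158 stayed within 1.5 times. At 12 against 6 hpa in *yki(RNAi)* tails, members higher were 10 without the filter on low counts and 3 by DESeq2, and members lower were 18 without the filter, 2 in the fit of all 24 libraries, 13 with the replicate block and 5 with members chosen by group means. At 12 against 24 hpa, members higher were 16 in the fit of all 24 libraries, and members lower were 18 without the filter, 0 in the fit of all 24 libraries and 6 with the replicate block. After the data were seen, the members called lower in *yki(RNAi)* intact animals were left out, which gave 22 higher and 1 lower. Also after the data were seen, the 6 members under the level minimum in *control(RNAi)* tails were left out, which moved each count of members called by at most 1. Against *yki(RNAi)* intact animals, members lower at 6 hpa were 5 by DESeq2 and members higher were 5 by group means, and members higher at 24 hpa were 11 without the filter, 3 by DESeq2 and 9 by group means. In intact animals, members higher were 5 without the filter, 5 in the fit of all 24 libraries, 5 with the replicate block, 1 by DESeq2, 5 by group means and 1 with a minimum of 10 CPM. The cause of these shifts was not tested.

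With 1 library left out, members higher and lower ranged from 2 to 14 and from 2 to 15 at 12 against 6 hpa, and from 15 to 30 and from 1 to 8 at 12 against 24 hpa. Against *yki(RNAi)* intact animals the ranges were 2 to 5 and 7 to 11 at 6 hpa, 7 to 10 and 10 to 12 at 12 hpa, and 4 to 11 and 10 to 11 at 24 hpa. In intact animals they were 0 to 4 higher and 21 to 42 lower. Of the 150 members, 143 stayed with log2(CPM + 1), 133 with TMM-scaled CPM, 123 by group means, 109 with a minimum of 10 CPM and 116 to 136 with a *control(RNAi)* tail library left out, and 58 stayed throughout. With the replicate block, 45 members were lower in *yki(RNAi)* intact animals and 26 were higher at 12 than at 24 hpa. Of 44 calls of named members, 26 held in every alternative, none reversed, and 65 of 515 refits lost the call. The median at 12 against 6 hpa turned to -0.02 without *yki(RNAi)* 6 hpa library B and to -0.015 with members chosen at a minimum of 10 CPM.

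Depth limits the members under 10 CPM, and 3 libraries a group limit every call.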
